A study of Homo sapiens with 9 samples.

Results

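The genes described here are ATF4, the transcription factor at the centre of the integrated stress response, and 9 further regulators of that response, ATF5, CEBPG, DDIT3, TRIB3, CHAC1, SESN2, PPP1R15A, NUPR1 and NIBAN1. They were chosen by symbol, knowing from these arrays that NIBAN1 was far lower and ATF4 higher in the exposed cells, and all 10 were found among the 19775 genes named on the array. They were measured in MiaPaCa2, an established human pancreatic carcinoma line, grown to 70% confluence and given the culture supernatant of naive pancreatic stellate cells, the fibroblast-like cells of the pancreas. The series held 9 Affymetrix arrays of total RNA, with 8 from cells exposed for 1, 2, 3, 4, 5, 6, 7 or 24 h and 1 control taken at 24 h. The control's own title, like those of the exposed arrays, names treatment with naive stellate cells, and the labels do not say what its cells were given. Each group held 1 array, so that no value had a replicate, the number of arrays limited the precision, and hours of exposure cannot be told apart from time in culture. Separate cultures are not stated either, so that p-values reflect only how far these arrays scatter, possibly for technical reasons.

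In the integrated stress response, kinases that sense amino acid shortage, unfolded protein, heme loss or double-stranded RNA phosphorylate the translation factor eIF2. Most protein synthesis then falls while the ATF4 message is translated more, and ATF4, often paired with a C/EBP factor such as CEBPG, switches on genes of amino acid uptake and synthesis. The response also builds its own brakes and outputs, among them PPP1R15A, which brings a phosphatase to eIF2, TRIB3, a pseudokinase that restrains ATF4, and DDIT3, also called CHOP, a factor tied to stress-induced cell death. Because ATF4 is controlled largely at translation, its message level is not a measure of its protein.

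ATF4 with its C/EBP partners binds a composite element, whose core was searched as TGATGNAA on either strand (TTNCATCA when read on the other) in the RefSeq windows from 250 bases before to 50 after each annotated start (GRCh38.p14). Of the 10 genes 9 had a window. The core was present in those of CHAC1 and CEBPG, 2 of 9 genes, against 4.46% of 27305 genes. The palindromic cyclic AMP response element TGACGTCA was present only in PPP1R15A, 1 of 9, against 2.25% of genes, and the endoplasmic reticulum stress element ERSE, searched on either strand, in 0 of the 9 (0.092% of genes). No matches overlapped in these genes. The 250 bases before the start are shown for ATF4 (chr22:39520309-39520558, plus strand) and NIBAN1 (chr1:184974509-184974758, minus strand), the genes that stood highest and lowest against the control, which hold none of the 3 motifs, and for CHAC1 (chr15:40953221-40953470, plus strand), whose core is in capitals.
ATF4: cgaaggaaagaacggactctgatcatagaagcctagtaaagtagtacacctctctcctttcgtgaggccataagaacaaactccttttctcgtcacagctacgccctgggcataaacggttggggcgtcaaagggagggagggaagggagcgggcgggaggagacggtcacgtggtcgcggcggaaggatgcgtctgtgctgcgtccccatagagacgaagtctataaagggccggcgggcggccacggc
NIBAN1: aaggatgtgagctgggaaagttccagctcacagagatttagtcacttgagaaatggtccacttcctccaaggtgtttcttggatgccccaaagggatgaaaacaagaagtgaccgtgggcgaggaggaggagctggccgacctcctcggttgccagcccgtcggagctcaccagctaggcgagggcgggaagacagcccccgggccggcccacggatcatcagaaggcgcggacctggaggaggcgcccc
CHAC1: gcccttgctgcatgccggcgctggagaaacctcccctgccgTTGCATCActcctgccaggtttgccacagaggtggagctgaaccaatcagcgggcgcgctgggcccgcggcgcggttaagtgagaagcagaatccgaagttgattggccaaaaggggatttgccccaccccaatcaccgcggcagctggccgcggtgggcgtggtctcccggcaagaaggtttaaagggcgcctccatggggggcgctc

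For the other matches 30 bases are shown, with the matched letters in capitals. The match in CEBPG (chr19:33374060-33374089, plus strand) lies 42 bases before the downstream of 2 starts of the gene, and that in PPP1R15A (chr19:48872352-48872381, plus strand) 58 bases before its start. ASNS (chr7:97872458-97872487, minus strand), CARS1 (chr11:3057407-3057436, minus strand) and GARS1 (chr7:30594834-30594863, plus strand) are amino acid genes known as ATF4 targets, shown for comparison because they were higher in the exposed arrays, as described further on. They were thus picked by their values. SLC7A1, SLC1A5, SLC1A4 and NARS1, of the same list, also hold the core, and their differences from the control did not pass.
CEBPG: cgcgcggcgtcTGATGCAAcctgccggcaa
PPP1R15A: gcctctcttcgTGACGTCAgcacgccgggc
ASNS: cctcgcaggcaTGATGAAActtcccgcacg
CARS1: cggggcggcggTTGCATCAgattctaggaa
GARS1: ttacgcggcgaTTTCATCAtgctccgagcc
A match describes the letters of a window and does not show a bound site.

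The arrays had medians from 4.92 to 4.97 over all probe sets, on the log2 scale used throughout. The control and the 5 h array stood apart, with a median correlation across probe sets of 0.990 and 0.991 with the others, against 0.996 to 0.997 for the remaining 7. The 5 h array also had the largest gap between the 3' and 5' probe sets of ACTB, a sign of RNA quality, at 2.24 against 1.59 to 1.97. KRT8, KRT18, KRT19 and VIM were bright on every array, while EPCAM (at most 2.81) and CDH1 (at most 3.66) were dim. Of 12 stellate cell and fibroblast markers, 7 had a mean of at least 5 and 3 of these passed as higher in the hourly arrays than in the control. The summed linear signal of the 12 was 2143 in the control and 2902 to 3863 in the exposed arrays, with LUM, PDGFRA, PDGFRB, FAP and POSTN dim throughout. Most of that sum came from COL1A2, at 10.30 in the control and 10.77 to 11.34 in the exposed arrays. COL3A1, COL6A3 and DCN also lay above the control in every exposed array. ACTA2 (7.70 against 6.89 to 7.76), COL1A1 (7.33 against 7.26 to 7.63) and THY1 (5.61 against 5.55 to 5.84) had exposed arrays on both sides of it. The sum was 175.0 in the control and 370.6 to 489.4 in the exposed arrays for 5 leukocyte markers (PTPRC and CD3E dim). Most of that difference came from LYZ, at 5.70 in the control and 7.90 to 8.21 in the exposed arrays, while CD14 (5.79 against 5.56 to 6.87) and CD74 (5.09 against 5.03 to 5.38) had exposed arrays on both sides of the control. For 5 endothelial markers (VWF and CDH5 dim) the sum was 178 in the control and 203 to 236 in the exposed arrays. The part of these signals in the results below was not tested.

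The control was set against the exposed arrays to describe how the regulators stood in cells that had met the supernatant. It was taken at 24 h, so that only the 24 h exposed array matched it in time. ATF4 was 10.13 in the control and 11.01, 11.02, 11.04, 11.06, 11.06, 10.94 and 10.97 from 1 to 7 h, and 10.99 at 24 h. All 8 exposed arrays lay above the control, and they differed among themselves by no more than 0.12. The mean of the 7 hourly arrays was 0.88 ± 0.07 above the control (standard error, SE, from a limma fit), or 1.84-fold. The fit takes the spread from the residuals of the hourly arrays around a straight line, moderated toward that of all genes tested. NIBAN1, which encodes a stress-induced cytoplasmic protein reported as a target of ATF4, stood the other way. It was 7.30 in the control and 5.29, 4.89, 5.27, 5.17, 4.69, 5.33 and 4.76 from 1 to 7 h, and 5.31 at 24 h. All 8 exposed arrays lay below the control, with differences from -2.61 to -1.97, and their values were close to the median of all probe sets on the arrays. The hourly mean differed from the control by -2.24 ± 0.23. With the exposed values at that low level the size of the difference may be only a lower bound, so no fold or rank is given, and the second probe set of the gene differed by -0.66. These differences served to choose the genes and carry no test. In such bulk samples fewer cells with a transcript and less transcript per cell cannot be told apart.

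**Figure D1:**
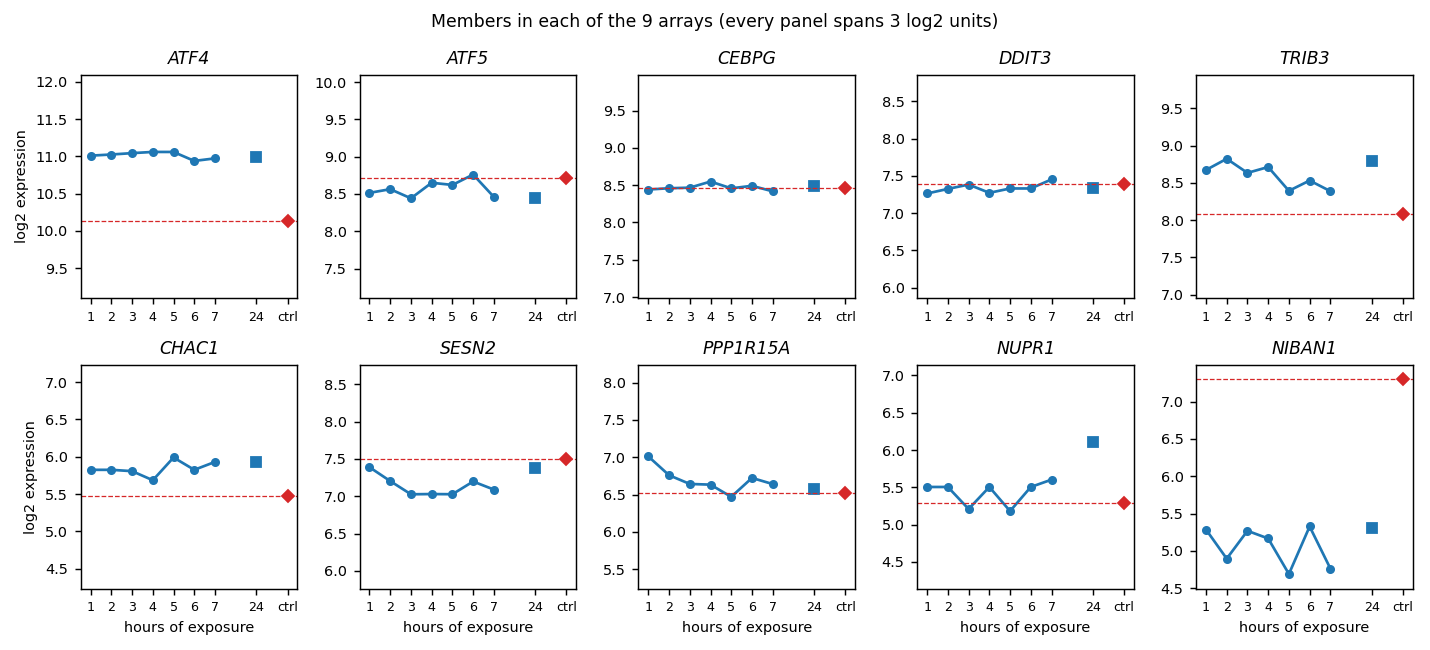
Log2 expression of the 10 genes (y axis, 3 log2 units in every panel) at each hour of exposure (blue, 1 array a point, with the step from 7 to 24 h not to scale) and in the control (red diamond and dashed line). ATF4 runs level near 11 above the control at 10.13, NIBAN1 lies between 4.69 and 5.33 below the control at 7.30, and NUPR1 is highest at 24 h, at 6.11.

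TRIB3 and CHAC1, both induced by ATF4 in other settings, also lay above the control in all 8 exposed arrays. TRIB3 was 8.08 in the control and 8.67, 8.82, 8.63, 8.71, 8.39, 8.53 and 8.39 over the hourly arrays, and 8.80 at 24 h. The 5 h and 7 h arrays were the nearest to the control, and the hourly mean was 0.51 ± 0.11 above it (1.43-fold). CHAC1, an enzyme that degrades glutathione, was 5.48 in the control and between 5.68, at 4 h, and 5.99, at 5 h, in the exposed arrays. Its hourly mean was 0.36 ± 0.10 above the control (1.29-fold), a difference measured on a dim probe set.

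DDIT3, the factor of stress-induced death, had exposed values on both sides of the control. It was 7.39 in the control and 7.26, 7.32, 7.38, 7.27, 7.33, 7.33 and 7.45 from 1 to 7 h, and 7.33 at 24 h. The 7 h array lay above the control and the other 7 below it, all within 0.13. The hourly mean differed from the control by -0.05 ± 0.08. After another quantile normalization the value was 0.03.

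The bZIP partners ATF5 and CEBPG also differed little on their brightest probe sets. ATF5, a paralog of ATF4 that is likewise translated under stress, was 8.72 in the control and 8.44 to 8.76 in the exposed arrays, 7 of which lay below the control. CEBPG, the small C/EBP factor that pairs with ATF4, was 8.46 in the control and 8.42 to 8.55 in the exposed arrays. The hourly means differed from the control by -0.15 ± 0.11 for ATF5 and by 0.01 ± 0.07 for CEBPG.

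SESN2, a leucine-sensing inhibitor of mTORC1 and a known ATF4 target, was below the control in all 8 exposed arrays. It was 7.50 in the control and 7.39, 7.20, 7.03, 7.03, 7.03, 7.20 and 7.09 over the hourly arrays, and 7.38 at 24 h. The 1 h and 24 h arrays were nearest to the control, and the hourly mean was -0.36 ± 0.12 against it (1.29-fold lower). PPP1R15A, the phosphatase subunit, was 6.52 in the control and 7.01, 6.76, 6.64, 6.63, 6.47, 6.72 and 6.64 over the hourly arrays, and 6.57 at 24 h. The 1 h array was highest, the 5 h array lay below the control, and the hourly mean differed from it by 0.17 ± 0.13. NUPR1, a small stress-induced chromatin protein, was 5.30 in the control, between 5.18 and 5.60 in the hourly arrays and 6.11 at 24 h. Its hourly values lay on both sides of the control, with 3 h and 5 h below it, and their mean differed from it by 0.13 ± 0.16.

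**Figure D2:**
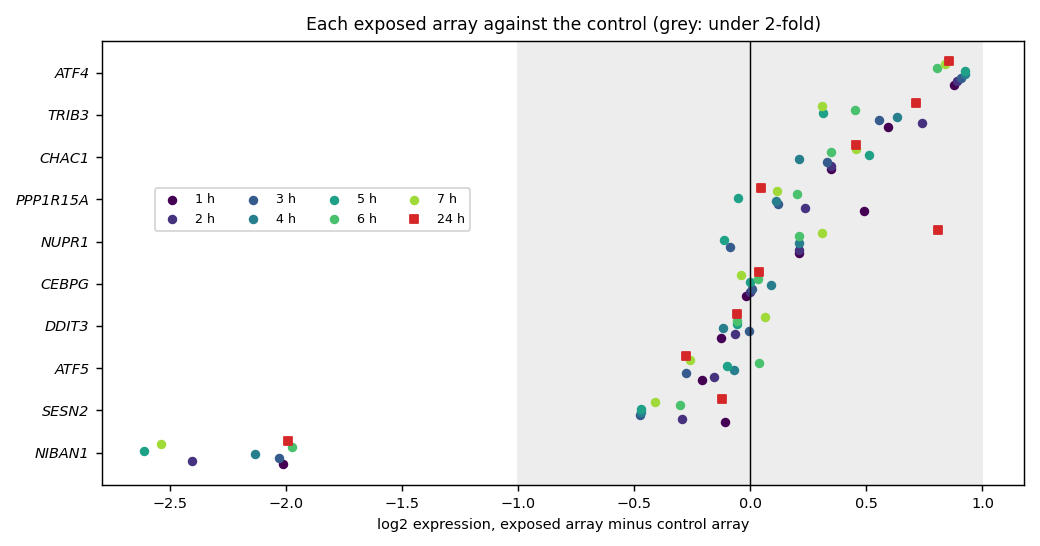
Log2 expression of each exposed array minus the control array (x axis) for the 10 genes, circles coloured by hour from 1 to 7 h and red squares for 24 h, with differences under 2-fold shaded. NIBAN1 is the gene outside the shading, ATF4 lies between 0.80 and 0.92, and NUPR1 reaches 0.81 at 24 h.

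Over the 10 genes the median difference of the hourly mean from the control was 0.07, where the median of all 12402 genes was -0.01. All exposed arrays lay above the control for 3 genes (ATF4, TRIB3 and CHAC1), against 21% of all genes, and below it for 2 (NIBAN1 and SESN2), against 24.1%, so that 5 of 10 kept to 1 side, against 45.2%. At least 2-fold higher was 0 of 10 (0.266% of all genes), and at least 2-fold lower was 1, NIBAN1 (0.452%). At 1.5-fold, ATF4 was higher (1.47% of all genes) and NIBAN1 lower (3.14%). These counts come from the contrast that chose the genes and from 8 arrays that share 1 control.

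Other probe sets of the same genes were used as a check. The 10 genes had 18 probe sets, and 6 genes had several. For TRIB3 the second probe set stood 0.74 above the control, also in 8 of 8 arrays, and for SESN2 it stood at -0.19, below it in 8 of 8. For NIBAN1 the second, dimmer probe set was 4.39 to 4.64 in the exposed arrays, also below the control in 8 of 8, with a mean difference of -0.66. CEBPG gave 2 answers, since its second probe set was 6.85 in the control and 7.14 to 7.43 in the exposed arrays, above the control in 8 of 8 by 0.50 on average, where the brightest differed by 0.01. The other 3 probe sets of ATF5 differed by -0.25, -0.01 and 0.05, and that of PPP1R15A by 0.02. ATF4, DDIT3, CHAC1 and NUPR1 had 1 probe set each and no such check. ATF4 has 4 annotated pseudogenes, and whether the probe set also measures them was not tested.

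**Figure D3:**
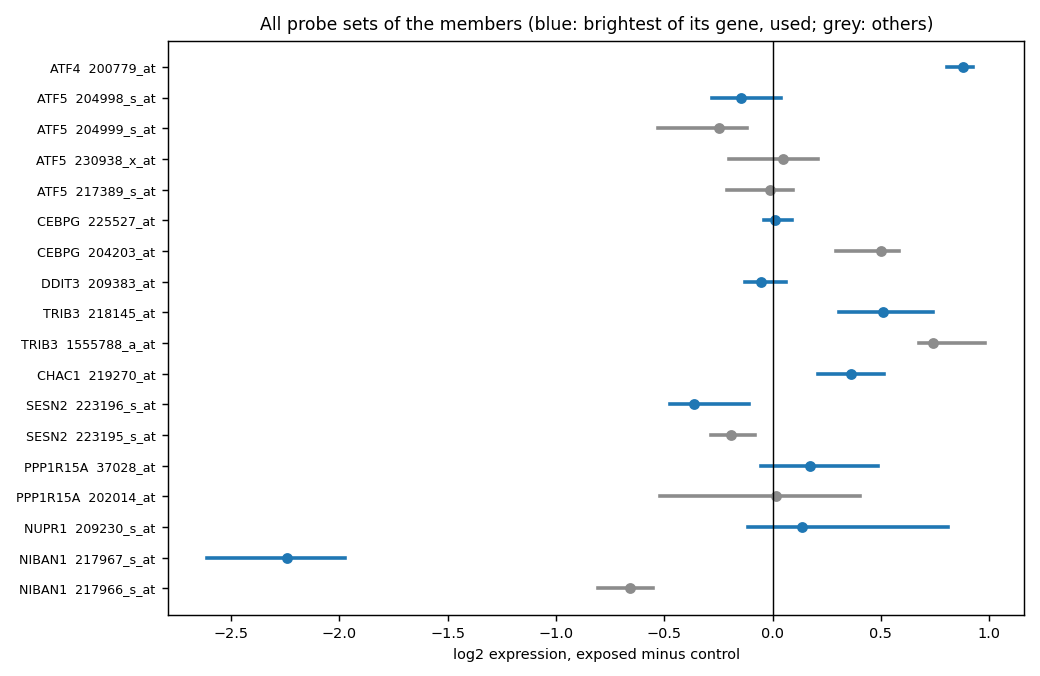
Exposed minus control on the log2 scale (x axis) for all 18 probe sets, with the mean of 1 to 7 h as a point and the lowest to highest of 8 exposed arrays as a line (blue, brightest of its gene; grey, others). The 2 probe sets of CEBPG do not overlap, and those of NIBAN1 lie at -2.24 and -0.66.

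The course within the exposure does not involve the control and was tested across all 12402 genes with limma, as a slope over 1 to 7 h, as an early step (1 to 2 h against 3 to 7 h) and as 24 h against the mean of 1 to 7 h. Of the 10 genes 0 passed a Benjamini-Hochberg adjusted p of 0.05 in each of the 3 contrasts. At an unadjusted p under 0.05 there were 1, 2 and 1 of the 10. Of all genes 0% passed for the slope (15.7% at the unadjusted p), 0% for the early step (15.1%) and 0.00806%, 1 gene, for 24 h (15.7%).

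ATF4 showed no slope beyond the scatter, at -0.01 ± 0.01 per h (95% interval -0.04 to 0.02; limma adjusted p = 0.750), and at 24 h it was -0.02 ± 0.07 from the hourly mean (interval -0.19 to 0.14). Its distance from the control was thus as large at 1 h (0.88) as at 24 h (0.86). NIBAN1 had a slope of -0.05 ± 0.04 per h (adjusted p = 0.609) and stood 0.25 ± 0.23 above the hourly mean at 24 h (adjusted p = 0.665). Its scatter over the hourly arrays, an SD of 0.27, was larger than that of 97.0% of genes, and that of ATF4, 0.05, was larger than that of 6.70%. By mean signal NIBAN1 stood above 8.06% of genes and ATF4 above 92.6%, and the part of signal level in the scatter was not tested.

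TRIB3 had a negative slope of -0.06 ± 0.02 per h that did not pass (limma adjusted p = 0.204). In the mean over its probe sets the slope was -0.04 ± 0.02 per h (limma adjusted p = 0.353). PPP1R15A stood 0.26 ± 0.09 higher at 1 to 2 h than at 3 to 7 h (limma adjusted p = 0.242) and SESN2 0.22 ± 0.07 higher (adjusted p = 0.243), and neither passed. On their brightest probe sets both genes were highest of the hourly arrays at 1 h. The second probe set of PPP1R15A was also highest at 1 h (6.23). That of SESN2 was 7.207 at 1 h, 7.081 at 2 h and highest at 4 h (7.213), and was not tested alone. NUPR1 had the largest 24 h difference of the 10, 0.68 ± 0.16 above the hourly mean (1.60-fold; adjusted p = 0.134), and ranked 52 of 12402 genes by size. It did not pass, and it rests on 1 array and 1 dim probe set. For CEBPG and DDIT3 the 24 h interval ran from -0.14 to 0.19 and from -0.18 to 0.17.

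**Figure D4:**
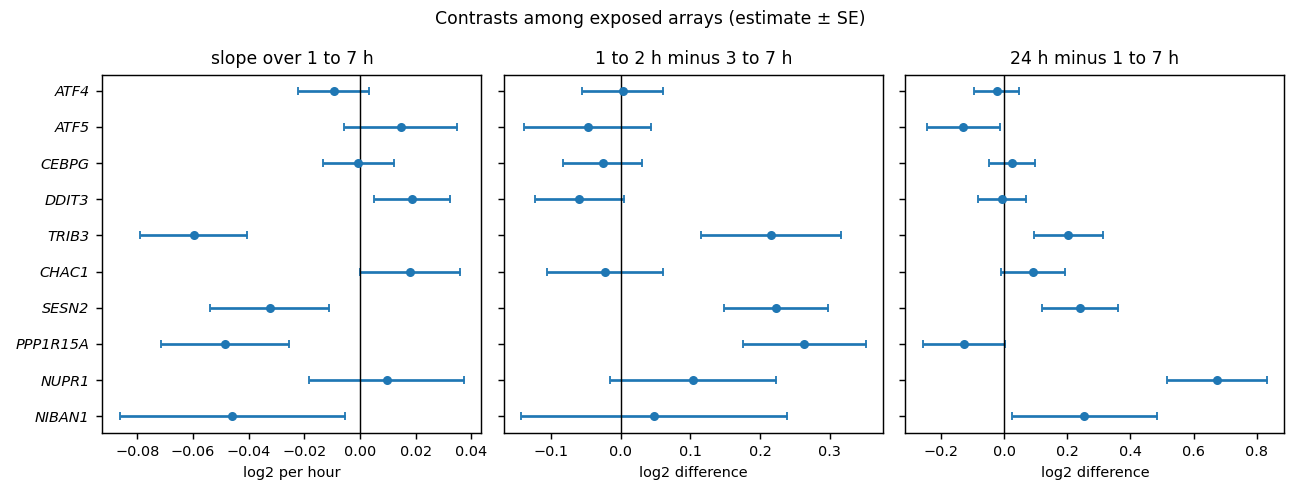
Estimates with SE (x axes, log2 per hour or log2 difference) for the 10 genes in the 3 contrasts among exposed arrays, from limma fits over 12402 genes. The largest is NUPR1 at 24 h, 0.68 ± 0.16, and none of the 30 estimates passed an adjusted p of 0.05.

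Equal values on several arrays affect the measured scatter. To the last deposited digit, 39.5% of tested genes had 2 or more arrays at the same value, and 4 of the 10 genes did. NUPR1 had the same value, 5.51, at 1, 2, 4 and 6 h, DDIT3 and CHAC1 each had 3 arrays at equal values and CEBPG had 2. Their effect on the SE was not tested.

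The likeness of other genes to ATF4, NIBAN1 and DDIT3 was described by Pearson's r over the 8 exposed arrays, which share 1 cell line and 1 normalization, among 12402 genes. The 5 highest are named for each. With so few arrays and so many genes some high r arise by chance, and no test was made. For ATF4 the nearest were LENG8 (r = 0.93), PNISR (0.93), PPP1R26-AS1 (0.90), SUGP2 (0.89) and PCF11 (0.88), over a spread of ATF4 of 0.04. The hourly mean of all 5 lay below the control, with differences from -0.33 to -0.06, while that of ATF4 lay above it. For NIBAN1 they were AGO3 (r = 0.98), ZNF681 (0.98), CAPN7 (0.97), IRAK1 (0.96) and ZMYM4 (0.96), and with the control included the r of ZNF681 was 0.998 (9 arrays) and those of the other 4 were 0.54 to 0.63. For DDIT3 they were OCA2 (0.97), DDX11L2 (0.96), ATAD5 (0.96), WFDC3 (0.94) and FRMD1 (0.94). Between ATF4 and NIBAN1 r was -0.95 over the 9 arrays and -0.28 over the 8 exposed ones. The first value includes the control, against which both genes were known to differ when chosen, and is no evidence of a link.

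The other genes of the pathway were taken from 7 lists by function, a few of them in 2 lists, and tested in the same fit, adjusted over all 12402 genes. The lists were drawn up with earlier results of these arrays known. Counts against the control, a single array, are therefore no independent evidence. Of 118 listed genes outside the 10, 105 were tested, and in the hourly mean against the control 19 passed as higher (18.1%) and 5 as lower (4.76%). Of all genes 13.9% passed, 5.85% as higher and 8.02% as lower (30.2% at an unadjusted p under 0.05). For the slope, the early step and 24 h, 0 of the listed genes passed.

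The ATF4 targets of amino acid supply gave most of the genes that passed as higher. The list was drawn up with results of these arrays known, so its count is no independent evidence. Among 25 tested, 14 passed as higher than the control, 0 as lower and 11 missed the threshold, with a median of 0.28 against -0.01 over all genes (limma). SLC7A11, the cystine carrier, was 6.42 in the control and 7.62 to 8.24 in the exposed arrays (1.59 ± 0.11, adjusted p = 0.000275). CTH, which makes cysteine from cystathionine, was 7.52 in the control and 8.27 to 8.77 (1.08 ± 0.14, adjusted p = 0.00225). ASNS, the asparagine synthetase, was 9.52 in the control and 10.28 to 10.64 (0.94 ± 0.11, adjusted p = 0.00158), and the glycyl-tRNA synthetase GARS1 was 11.12 and 11.73 to 11.88 (0.67 ± 0.08, adjusted p = 0.00170). All 8 exposed arrays lay above the single control for these 4 genes, named for their large differences, and for 21% of all genes. CARS1, the cysteinyl-tRNA synthetase whose promoter match is shown above, was 0.40 ± 0.08 higher than in the control and was named after its values were seen. Of the listed genes whose promoter window held the core TGATGNAA 5 of 9 passed, and of those whose window did not 7 of 12. Among the genes that did not pass were the serine synthesis enzymes PHGDH (-0.24 ± 0.10) and PSPH (-0.11 ± 0.10), the folate enzyme MTHFD2 (0.04 ± 0.07) and the carrier SLC1A4 (-0.37 ± 0.14), named after their values were seen.

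Among 15 other ATF4 targets, 2 passed as higher than the control, 0 as lower and 13 missed the threshold (median 0.13). HERPUD1, a factor of protein degradation at the endoplasmic reticulum, was 0.37 ± 0.10 higher (limma adjusted p = 0.0472) and PCK2, the mitochondrial PEP carboxykinase, 0.33 ± 0.09 (adjusted p = 0.0467). This count was 0 with the arrays shifted to 1 median and when the 1, 2, 3, 4 or 6 h array was left out, 1 without 7 h and 3 without 5 h. KLHL24 (0.54 ± 0.25) and JDP2 (0.25 ± 0.17) did not pass.

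Among 13 C/EBP and ATF partners 0 passed as higher and 2 as lower, ATF3 and ATF2 (median -0.07). ATF3, a stress-induced repressor and known target of ATF4, was 6.86 in the control and 5.87 to 6.38 in the exposed arrays (-0.68 ± 0.16, limma adjusted p = 0.0243), and ATF2 was 9.86 and 9.19 to 9.68 (-0.53 ± 0.13, adjusted p = 0.0288). All 8 exposed arrays lay below the single control in both genes, named for their large differences, and in 24.1% of all genes. The count of lower genes was 1 without the 3, 4 or 7 h array, and in the mean over probe sets. After another quantile normalization and without the 5 h array 2 genes passed as higher. CEBPB, a C/EBP factor, was 0.33 ± 0.10 higher and did not pass (adjusted p = 0.0508), nor did CREB1 (-0.34 ± 0.13).

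Of 19 genes of the eIF2 kinases and translation control 1 passed as higher than the control array, 1 as lower and 17 missed the threshold (median -0.02). EIF2AK2, the kinase PKR that senses double-stranded RNA, was 10.07 in the control and 9.13 to 9.54 in the exposed arrays (-0.68 ± 0.11, limma adjusted p = 0.00582). EIF2A, an alternative initiation factor, was 10.42 in the control and 10.79 to 11.03 (0.47 ± 0.08, adjusted p = 0.00663). DNAJC3, an inhibitor of eIF2 kinases (-0.37 ± 0.13), and IMPACT, which restrains the amino acid sensing kinase (0.34 ± 0.15), missed the threshold. Averaging probe sets or leaving out 5 h gave 2 higher genes, and leaving out 6 h gave 2 lower ones.

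The endoplasmic reticulum chaperone arm gave values on both sides. Of 16 genes 2 passed as higher, HSPA5, the chaperone BiP (0.40 ± 0.08, limma adjusted p = 0.0187), and the transcription factor XBP1 (0.32 ± 0.08, adjusted p = 0.0349), and 1 as lower, CRELD2 (-0.47 ± 0.07, adjusted p = 0.00541), while the sensor ERN1 (-0.40 ± 0.12) did not pass and the median was 0.02. The higher count was 1 with the arrays shifted to 1 median, in the mean over probe sets and without the 3, 4 or 7 h array, and 3 after another quantile normalization. Leaving out 5 h gave 3 higher and 2 lower genes. Of 13 sestrin and mTORC1 genes 0 passed in either direction by limma, DEPTOR, an inhibitor of mTOR, standing at 0.46 ± 0.21, CASTOR1, an arginine sensor, at 0.24 ± 0.25, NPRL2 at -0.26 ± 0.09 and DEPDC5 at -0.21 ± 0.08, the last pair being subunits of the GATOR1 complex (1 passed as higher without the 5 h array).

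Of 7 measured relatives of the 10 genes, 1 passed as lower than the control, 0 as higher and 6 missed the threshold (median 0.20). CHAC2, the paralog of CHAC1, was 10.14 in the control and 9.45 to 9.87 in the exposed arrays (-0.39 ± 0.09, limma adjusted p = 0.0262), where CHAC1 lay above its control in each array. This call was lost without the 2 h array, and 1 relative passed as higher after another quantile normalization and without the 5 h array. The pseudokinases TRIB2 (0.37 ± 0.14) and TRIB1 (0.21 ± 0.14) and the constitutive phosphatase subunit PPP1R15B (0.22 ± 0.12) did not pass.

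**Figure D5:**
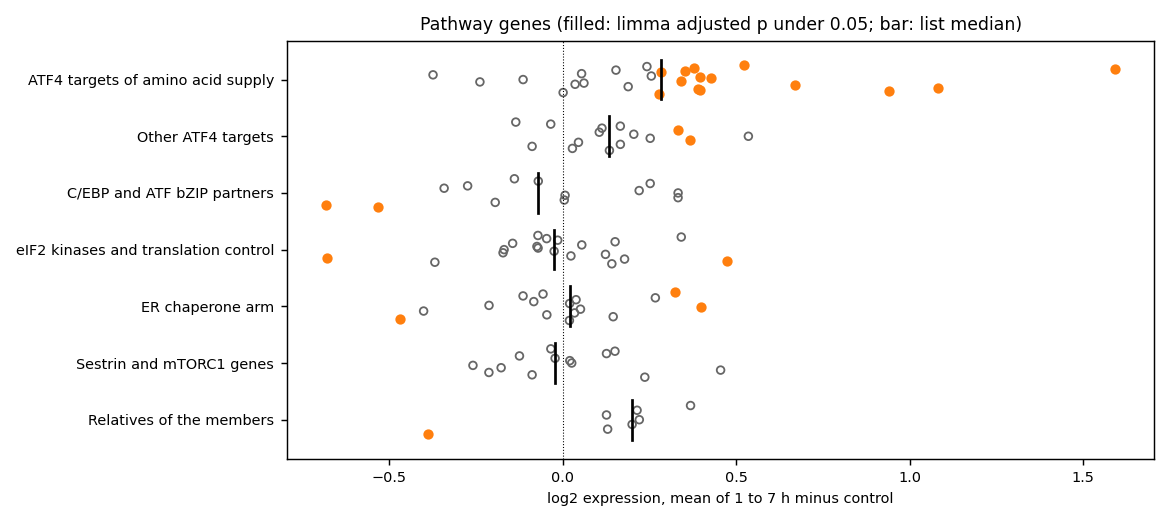
Difference of the mean of 1 to 7 h from the control on the log2 scale (x axis) for each tested gene of the 7 lists, filled where limma's adjusted p was under 0.05, with the list median as a bar. In the amino acid list 14 of 25 genes are filled, all to the right of 0, and SLC7A11 lies farthest at 1.59.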

How the data were processed

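Per the submitters' processing notes, the authors made the deposited log2 values with RMA, a method of background correction, quantile normalization and probe set summary (version not given in the sources used here). It covered 54675 probe sets, of which 41097 had 1 gene symbol, updated by Entrez ID to GRCh38.p14 names. A deposited filtered table of 6370 probe sets held 3 of the 18 used here.

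Each gene was represented by its brightest probe set, and testing covered 12402 genes whose mean reached 5, among them all 10 described. Limma 3.58.1 in R 4.3.3 was fitted with the centred hour (or the early step) and indicators of the 24 h and control arrays, with 5 residual and 3.72 prior degrees of freedom, two-sided, with Benjamini-Hochberg adjustment over all genes. Single arrays (24 h, control) were taken to have the variance of the hourly series. On data simulated with independent normal noise, the mean estimate of added changes was required to lie near their set size. No such requirement was placed on missed or false calls.

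The 10 genes and the lists were chosen with earlier results of these data known. Named were the 10 genes, in each list the 4 with the largest difference from the control, and 5 genes most like ATF4, NIBAN1 and DDIT3. Python 3.11.15, pandas 2.3.3, numpy 2.4.6 and matplotlib 3.10.9 were also used. The 1 gene that passed at 24 h is not reported here. Alternatives covered probe sets, normalization, filter, variance model, time scale and left-out arrays.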

Additional observations from a re-analysis of the deposited data

Results flagged for a closer look

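NUPR1 at 24 h, with 6.11, lay apart from the other exposed arrays, the nearest of which was 5.60. The gap was 0.544 of the range of the 8 exposed arrays, above Dixon's critical value at the 95% level for 8 values. About 1 in 20 such sets passes by chance, 10 genes were examined, and the 8 arrays are time points rather than replicates.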

How the results depend on the processing

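No alternative brought any of the 10 genes past the adjusted p of 0.05 in the 3 contrasts among exposed arrays (408 fits of a gene, lowest adjusted p = 0.0747, for NUPR1 at 24 h, whose adjusted p reached 0.341). In an exact permutation of the slope over 5040 orders the unadjusted p was 0.0401 for TRIB3 and 0.124 or more for the other 9. Against the control, over the other settings that keep the hourly arrays, ATF4 stayed between 0.87 and 0.89 and NIBAN1, where measured, between -2.29 and -2.17. All of these settings keep the same single control array, and the genes were chosen with this contrast known. The narrow ranges therefore do not measure how repeatable the differences are. In the mean over probe sets NIBAN1 fell under the filter, so that 0 of 9 members were 2-fold apart and 55 of all genes, against 1 and 89, and CEBPG stood at 0.26. At 1.5-fold the hourly mean set 572 genes and 2 members apart. With the 24 h array in place of the hourly ones 144 genes were 2-fold apart. In 8 of 80 comparisons of a member with the control the difference was 2-fold, all NIBAN1, under each of the 3 normalizations. These 8 share 1 control, and NIBAN1 was chosen knowing that it was far lower in the exposed cells. Of all genes, 0.468% to 0.879% were at least 2-fold lower on an exposed array and 0.274% to 0.468% at least 2-fold higher. The number of genes with a slope was 0, but 15 with a mean of at least 6, 25 with robust estimation and an intensity trend and 74 with log2 of the hour, and 0 to 73 with an array left out, 73 without the 5 h array. For 24 h it was 1, but 11 with robust estimation, 0 in the mean over probe sets, with the arrays at 1 median, with no filter and against 6 and 7 h, and 0 to 9 with an array left out, 9 without the 1 h or the 5 h array. For the early step it was 0 in every setting. Of the amino acid targets, 14 passed as higher, and 11 to 16 in the alternatives added after seeing the data, and 0 as lower, but 1 in the mean over probe sets. The cause of these shifts was not tested. Array values carry no read depth, and dim probe sets (CHAC1, NUPR1, NIBAN1) limit the smallest difference that can be seen. No paired analysis was possible because each group held 1 array.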
